A study of Mus musculus with 44 samples.

Results

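A set of 46 genes of cell division and DNA copying was followed in mouse osteoblast cultures, from the cyclins that open the cell cycle to the enzymes that copy DNA and the kinases and motors of mitosis. Members were found by gene symbol in the probe annotation of 3 Affymetrix arrays, called A, B and C, on which a gene is read by 1 or more probe sets. Of the 46 genes, 45 were found, with 80 of the 36701 probe sets (59 on A, 4 on B and 17 on C) and 45 of 15964 annotated genes, while Ccnb1 was not analysed here. In all, 23 members had 1 probe set and 22 had several.

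RNA came from cultures of calvarial osteoblasts, the bone-forming cells of the skull cap, of new-born mice aged 7 days, and the labels name no strain or sex. The day 7 cultures carried pOBCol3.6GFP, grew in DMEM with 10% FCS (fetal calf serum) and had no additions. The day 17 cultures, also with 10% FCS, carried pOBCol2.3GFP and had ascorbic acid and beta-glycerophosphate from day 7 to day 17. Both transgenes put green fluorescent protein (GFP) under a fragment of the type I collagen promoter, so the sort follows collagen promoter activity and not a cell surface marker. Cell sorting gave a GFP-positive and a GFP-negative fraction beside the unsorted culture, which makes 6 groups of 3 samples. The experiments of day 7 were Exp99, Exp101 and Exp103, and those of day 17 were Exp100, Exp105 and Exp106. Day, transgene and additions changed together and cannot be told apart. Array A was run for each of the 18 RNA samples, and the 12 sorted samples were read on B and C as well.

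As background, a cell enters the cycle when D-type cyclins with Cdk4 and cyclin E with Cdk2 release the E2F factors, which switch on genes for copying DNA. Helicase subunits, polymerases and enzymes of nucleotide supply are then made, and later, through factors such as Foxm1, the cyclins, kinases and spindle proteins of mitosis. Osteoblast precursors divide, and cell division falls away as the cells mature and lay down matrix.

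Levels are given as normalised intensity, the brightness of a probe set after the arrays of 1 type were put on a common distribution. A difference is in log2 units, with its standard error (SE) from limma, and called means a Benjamini-Hochberg adjusted p under 0.05 over all tested probe sets. A probe set was tested if it was above its own array's median on at least 3 arrays. In the sorted samples 65 of the 80 probe sets and 43 members were tested, and on array A with the unsorted samples 48 of 59 and 39 members. Tyms and Prim1 were tested in neither, and Ccne2, Cdc25b, Mcm6 and Bub1b only in the sorted samples. A member is described by 1 probe set, from array A where 1 was tested there. Values of 3 samples are listed in the order Exp99, Exp101, Exp103 at day 7 and Exp100, Exp105, Exp106 at day 17.

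The samples of Exp106 stood apart from the others. On array A the mean correlation of its samples with those of the other experiments was 0.694 over probe sets, against 0.901 among the others. The pairs among the others include fractions of 1 experiment, so these means are of unlike pairs. Differences that rest on day 17 are given with and without it. Exp106 was singled out with its values for these members known, so each p-value without it comes after that choice. The sources used here do not say whether its arrays were of the same version and processed in the same way as the others, and its values are to be read with that limit. Of the osteoblast markers, Col1a1, the type I collagen chain, read 42649 to 149221 in all samples, while markers of mature osteoblasts were low at day 7. Alpl, alkaline phosphatase, ran from 291 to 748 at day 7 and from 4002 to 15946 at day 17, and Dmp1, of osteocytes, from 50 to 224 and from 172 to 8719. Ibsp, bone sialoprotein of mineralising osteoblasts, ran from 37 to 1903 at day 7 and from 11863 to 100229 at day 17. Macrophage and leukocyte markers were present too: summed over the 11 tested on array A, of 12 on the list, they reached 10291 to 25314 in the GFP-negative, 3127 to 3581 in the GFP-positive and 12988 to 29249 in the unsorted samples at day 7. At day 17 the sums were 46079 to 91860 in the GFP-negative and 123465 to 163929 in the unsorted samples. In the GFP-positive samples of day 17 they were 13809 and 13750 in Exp100 and Exp105 and 60823 in Exp106. In samples of mixed cells, fewer cells of a type and less RNA per cell cannot be told apart.

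The sign of the difference between day 17 and day 7 turned on Exp106. With all 3 day 17 experiments the members sat around 0. In GFP-positive cells 22 of 43 were higher at day 17, with a median of 0.03 against -0.06 over all tested probe sets. In GFP-negative cells 23 of 43 were higher (median 0.03, all -0.04) and in unsorted cells 18 of 39 (median -0.06, all -0.09). Without Exp106 most members read higher at day 17 in each kind of cell. They were 33 of 43 in GFP-positive (median 0.26, all -0.01), 39 of 43 in GFP-negative (median 0.43, all -0.01) and 33 of 39 in unsorted cells (median 0.26, all -0.07). Without Exp106 the members' medians were also above 0 on the deposited scale (0.12, 0.46 and 0.38 for GFP-positive, GFP-negative and unsorted cells) and with arrays scaled to 1 trimmed mean (0.19, 0.45 and 0.33).

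Few of these differences were called. In GFP-positive cells 1 of 65 member probe sets was called, Cdk4, lower, where 4.82% of all 22099 were. In GFP-negative cells limma called 0, with 4 members at an unadjusted p under 0.05, and 0.434% of all probe sets were called. In unsorted cells 1 of 48 was called, Tk1, higher, against 5.71% of 7455. Without Exp106 the called members in GFP-positive cells were 4 (Ccna2, Cdc25c and Mki67 higher, Cdk4 lower; 11.2% of all probe sets). In GFP-negative cells limma called 0, with 15 members at an unadjusted p under 0.05, and 1.85% of all were called. In unsorted cells 4 were called without Exp106 (Ccna2, Plk1 and Tk1 higher, Ccnd2 lower; 13.2% of all). None of these shares of members was above that of all probe sets.

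Experiment by experiment, each day 17 sample can be set against the mean of the 3 day 7 samples of its kind. In GFP-negative cells the members had a median of 0.42 for Exp100, 0.58 for Exp105 and -0.48 for Exp106. In GFP-positive cells it was 0.14, 0.39 and -0.79, and in unsorted cells 0.31, 0.21 and -0.71. The median was thus below 0 in all 3 samples of Exp106 and above 0 in all 6 of Exp100 and Exp105. The day 7 samples, set against their own group's mean, stayed between -0.16 and 0.17. Each of them is part of that mean, which narrows this range, while the day 17 samples are not. With only the sample of Exp100 or of Exp105 left out of a comparison, the members' median between the days was below 0 in each kind of cell, from -0.24 to -0.02.

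**Figure D1:**
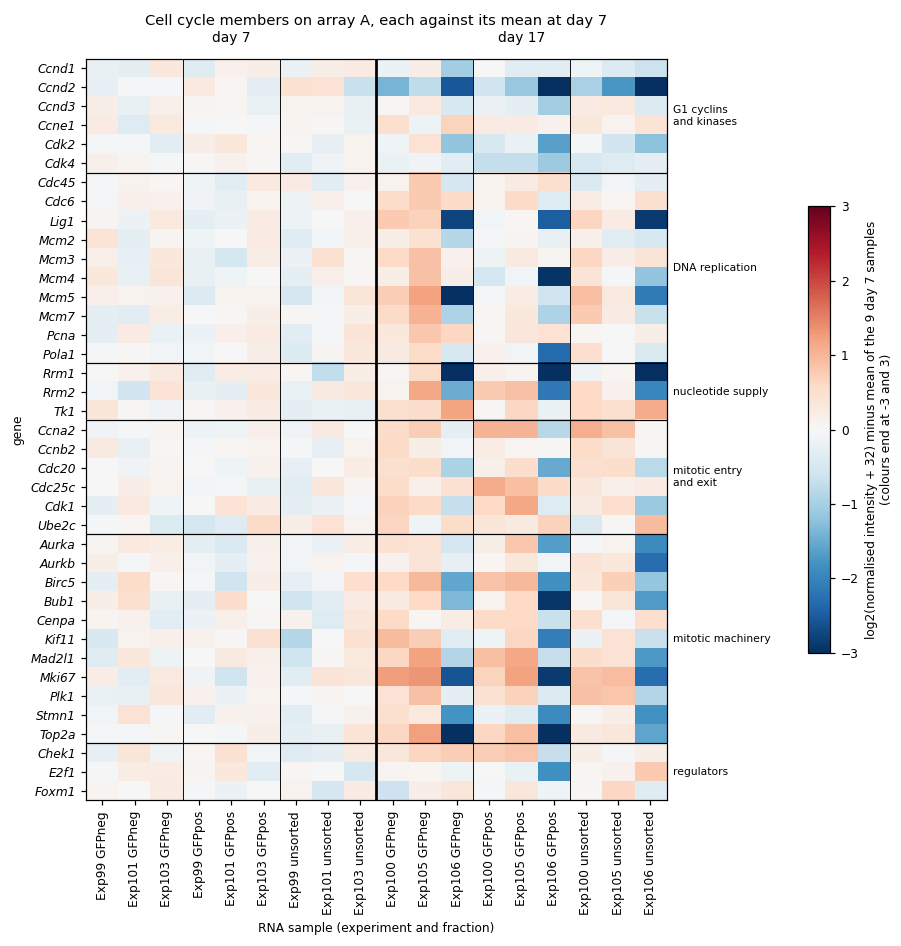
Each row is 1 of the 39 members tested on array A, by role, and each column 1 of the 18 RNA samples; colour is log2(normalised intensity + 32) minus the gene's mean over the 9 day 7 samples. The day 17 columns of Exp100 and Exp105 are mostly red and those of Exp106 mostly blue, among the deepest Rrm1, Mki67 and Top2a.

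Of the genes that open the cycle, the G1 cyclins and kinases, 2 of 7 were above 0 at day 17 in GFP-positive cells (median -0.47, and -0.19 without Exp106). Cdk4, the kinase that D-type cyclins switch on, read 15883, 15018 and 13679 in GFP-negative and 14685, 15644 and 14587 in GFP-positive cells at day 7. At day 17 it read 12520, 13223 and 11496 in GFP-negative and 8750, 8634 and 6744 in GFP-positive cells. By this probe set the 3 GFP-positive samples of day 17 were below every other sorted sample. The fall in GFP-positive cells was 1.87-fold (-0.90 ± 0.17 SE, limma, adjusted p = 0.0114), and without Exp106 it was called too (-0.78 ± 0.12, limma, adjusted p = 0.00341). Unsorted cells read 11185, 13172 and 15276 at day 7 and 10174, 10896 and 11845 at day 17, which overlap. In GFP-negative cells the difference was -0.26 ± 0.17 (limma, adjusted p = 0.627) and in unsorted cells -0.26 ± 0.16 (limma, adjusted p = 0.339), and without Exp106 they were -0.20 and -0.31, not called. The GFP-positive call was lost when the day 7 GFP-positive sample of Exp101 (limma, adjusted p = 0.0505) or of Exp99 (limma, adjusted p = 0.0514) was left out, and when only the groups compared were fitted (limma, adjusted p = 0.0724). The other tested Cdk4 probe set, also on array A, did not show this pattern: it read 2131, 4230 and 7823 in GFP-positive cells at day 7 and 4286, 4416 and 1050 at day 17, which overlap. Its difference was -0.60 with Exp106 (limma, adjusted p = 0.62) and 0.07 without.

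Ccnd2, a D-type cyclin, read low at day 17 in all 3 kinds of cells. It was at 5023, 5757 and 5764 in GFP-negative, 7338, 6186 and 4896 in GFP-positive and 8223, 8039 and 3733 in unsorted cells at day 7. At day 17 the values were 2242, 3477 and 987 in GFP-negative, 3906, 2682 and 684 in GFP-positive and 3028, 1748 and 557 in unsorted cells. No day 17 sample reached the lowest day 7 sample of its kind, and Exp106 was the lowest each time. The differences were -1.46 ± 0.57 in GFP-negative, -1.63 ± 0.57 in GFP-positive and -2.10 ± 0.63 in unsorted cells (limma, adjusted p = 0.363, 0.134 and 0.0637), none of them called, though with the experiment as a random block the last was (limma, adjusted p = 0.0306). Without Exp106 they were -0.97 ± 0.25, -0.90 ± 0.25 and -1.43 ± 0.34, and the one in unsorted cells was called (limma, adjusted p = 0.105, 0.053 and 0.0143).

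The other G1 members had smaller differences, none of them called. Ccnd1, the D-type cyclin of growth factor signals, read 6813, 6549 and 9876 in GFP-negative, 6148, 8677 and 8901 in GFP-positive and 7073, 8953 and 9393 in unsorted cells at day 7. At day 17 it read 7033, 9171 and 3842, then 8039, 6294 and 6288, then 7295, 5977 and 5086 in the same order of cells. Its groups overlapped in each kind of cell, with the differences -0.19 in GFP-positive and -0.47 in unsorted cells (-0.13 and -0.35 without Exp106). Cdk2, the partner of cyclin E, read 992, 1080 and 891 in GFP-positive cells at day 7 and 608, 743 and 259 at day 17, with no overlap (-0.96 ± 0.47, limma, adjusted p = 0.296; -0.53 ± 0.27 without Exp106, limma, adjusted p = 0.264). Ccnd3, the D-type cyclin of many mature tissues, read 3978, 3924 and 3265 in GFP-positive cells at day 7 and 3342, 3140 and 1796 at day 17. Ccne1 and Ccne2, the cyclins of S phase entry, differed by 0.24 and 0.49 in GFP-positive cells, and by 0.27 and 0.11 without Exp106. The Ccne2 probe set of array C read 3412, 3764 and 2880 there at day 7 and 4641, 2799 and 7885 at day 17, with Exp106 the highest.

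Genes that copy DNA read higher at day 17 in GFP-negative cells once Exp106 was left out. All 11 tested replication genes and the 3 tested of nucleotide supply were then above 0 (median 0.62), and 6 of these 14 had an unadjusted p under 0.05, as had 3230 of all 21115 probe sets, but limma called 0. In GFP-positive cells 11 of the 14 were above 0, with a median of 0.14, and in unsorted cells 12 of 13 (median 0.23). With Exp106 the counts were 10 of 14 in GFP-negative, 6 of 14 in GFP-positive and 6 of 13 in unsorted cells, with medians of 0.20, -0.09 and -0.12.

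Mcm5, a subunit of the helicase that opens DNA, showed the split between experiments. It read 2053, 1997 and 2028 in GFP-negative, 1375, 2001 and 1993 in GFP-positive and 1295, 1752 and 2360 in unsorted cells at day 7. At day 17 Exp100 and Exp105 gave 3101 and 4297 in GFP-negative, 1800 and 2155 in GFP-positive and 3494 and 2247 in unsorted cells, while Exp106 gave 148, 1199 and 409. In GFP-negative cells day 17 was above day 7 in Exp100 and Exp105 and below it in Exp106. The GFP-negative difference was -0.61 ± 0.89 with Exp106 and 0.84 ± 0.23 without (limma, adjusted p = 0.833 and 0.115). Mcm2, another subunit, read 1611, 977 and 1278 in GFP-negative cells at day 7 and 1365, 1688 and 661 at day 17. In GFP-positive cells it read 1103, 1220 and 1450 against 1182, 1288 and 1033, and in unsorted cells 929, 1146 and 1349 against 1362, 951 and 862. Its groups overlapped in all 3 kinds of cells.

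Pcna, the sliding clamp of the polymerases, did not share the low values of Exp106. In GFP-negative cells it read 3500, 5047 and 3722 at day 7 and 5327, 7455 and 6540 at day 17, where all 3 samples were above the day 7 ones. The difference was 0.66 ± 0.23 (limma, adjusted p = 0.306) and 0.64 ± 0.23 without Exp106 (limma, adjusted p = 0.223). In GFP-positive cells it read 3770, 4750 and 5024 against 4386, 5404 and 5797, and in unsorted cells 3363, 4184 and 5576 against 4453, 4295 and 4793. Both of these comparisons overlapped. Mcm6, a helicase subunit read on array C, was at 267, 207 and 725 in GFP-negative cells at day 7 and at 1325, 1294 and 809 at day 17 (1.60 ± 0.46, limma, adjusted p = 0.201; 1.83 ± 0.50 without Exp106, limma, adjusted p = 0.118). In GFP-positive cells it read 930, 659 and 457 against 838, 853 and 755, which overlap, with a difference of 0.30 ± 0.46 (0.35 ± 0.50 without Exp106).

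Of the remaining replication genes, Cdc6, which loads the helicase, Cdc45, which activates it, and the helicase subunits Mcm3 and Mcm7 were above 0 in GFP-negative cells with and without Exp106. Lig1, the ligase that joins new strands, was at -0.48 there with Exp106 and at 0.69 without, and in GFP-positive cells at -0.76 and 0.06. Mcm4 and the polymerase subunit Pola1 were at -1.08 and -0.79 in GFP-positive cells with Exp106 and at -0.20 and -0.01 without. None of these was called.

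Among the genes of nucleotide supply, the probe set used for Tk1 did not share the low values of the ribonucleotide reductase subunits in the GFP-negative and unsorted cells of Exp106. The 5 tested Tk1 probe sets disagreed in Exp106. One of array C read 1770 and 1269 in the sorted cells of Exp106 and 3211 to 4347 in those of Exp100 and Exp105. Another of array C read 23808 in GFP-negative and 12584 in GFP-positive cells of Exp106, against 11254 and 20523, and 6157 and 9707. Tk1, thymidine kinase, read 1675, 1756 and 1732 in unsorted cells at day 7 and 3050, 2821 and 4399 at day 17, with no overlap and Exp106 highest. The rise was 1.93-fold (0.95 ± 0.25, limma, adjusted p = 0.0383) and 0.76 ± 0.18 without Exp106 (limma, adjusted p = 0.0153). With the experiment as a random block the adjusted p of limma was 0.0859. The call was also lost without the unsorted sample of Exp100 (limma, adjusted p = 0.0678), Exp106 alone (0.158), Exp99 (0.114), Exp101 (0.103) or Exp103 (0.12), and without the day 7 GFP-positive sample of Exp99 (0.0514), Exp101 (0.0508) or Exp103 (0.0542). Other settings that ended it were no filter (limma, adjusted p = 0.0547), the deposited scale (0.0617, and 0.0894 there without Exp106) and only the groups compared (0.0801). In GFP-negative cells Tk1 read 2590, 2064 and 1870 against 2824, 2902 and 4634 (0.63 ± 0.28, limma, adjusted p = 0.439; 0.40 ± 0.22 without Exp106). In GFP-positive cells it read 2049, 2191 and 2378 against 2076, 3128 and 1744, which overlap (0.03 ± 0.28; 0.21 ± 0.22 without Exp106). Macrophage and leukocyte markers were called higher in the same comparisons, 8 of the 11 tested in unsorted cells and 5 of 10 in GFP-positive cells, and in unsorted cells 3 of 6 skeletal muscle markers were called lower. Their part in these results was not tested.

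Rrm2, the regulated subunit of ribonucleotide reductase, read 1595, 1127 and 2257 in GFP-negative, 1453, 1406 and 2137 in GFP-positive and 1478, 2047 and 2158 in unsorted cells at day 7. At day 17 Exp100 and Exp105 read 1825 and 3809 in GFP-negative, 2959 and 3130 in GFP-positive and 2594 and 1852 in unsorted cells, and Exp106 585, 357 and 413. The GFP-positive difference was -0.11 ± 0.78 with Exp106 and 0.88 ± 0.37 without (limma, adjusted p = 0.955 and 0.171). Rrm1, the large subunit, read 151, 69 and 122 in the GFP-negative, GFP-positive and unsorted cells of Exp106, where all 15 other samples read 1158 to 2883.

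**Figure D2:**
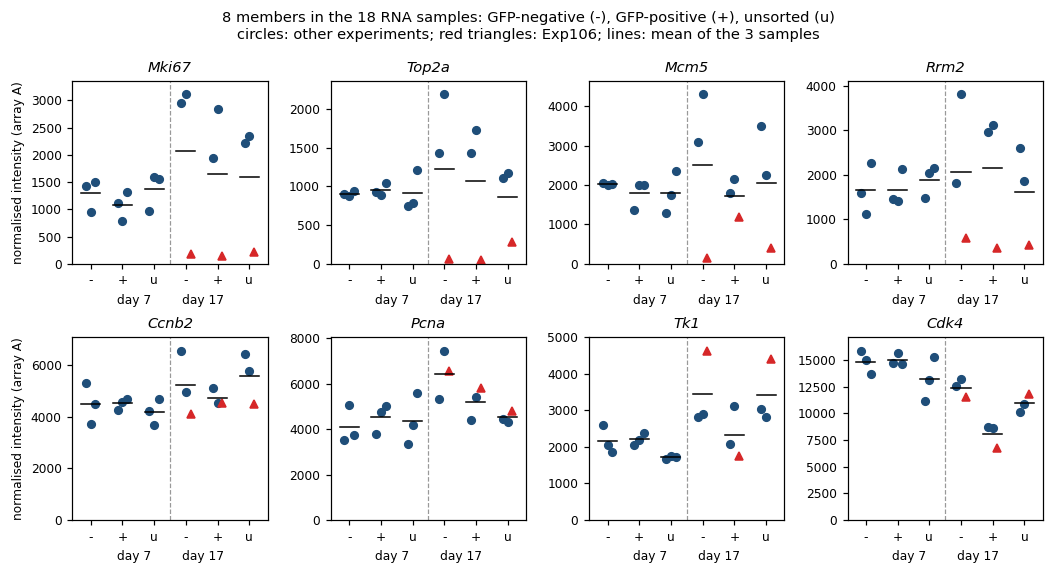
Normalised intensity on array A of 8 members in the 18 RNA samples, by day and fraction, with Exp106 as red triangles and a line at the mean of the 3 samples. Mki67, Top2a and Rrm2 have their Exp106 points near the bottom, while Ccnb2, Pcna, Tk1 and Cdk4 do not, and the 3 day 17 GFP-positive points of Cdk4 lie at 6744 to 8750.

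Genes of mitosis read higher at day 17 without Exp106 in nearly every case. Of the 19 tested members of mitotic entry, exit and machinery, 18 were above 0 in GFP-positive cells (median 0.59), 19 in GFP-negative cells (median 0.44), and 16 of 17 in unsorted cells (median 0.44). With Exp106 these were 12 and 10 of 19 and 7 of 17, with medians of 0.16, 0.03 and -0.06. Without it, 9, 8 and 8 of them had an unadjusted p under 0.05, and limma called 3, 0 and 2. Over all probe sets, 5357 of 21115, 3230 of 21115 and 2030 of 7033 had such a p without Exp106, and 11.2%, 1.85% and 13.2% were called. The fractions of 1 experiment come from the same experiment, so the 3 comparisons are not independent.

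Mki67, the proliferation marker that coats mitotic chromosomes, read 1424, 956 and 1496 in GFP-negative, 1123, 794 and 1324 in GFP-positive and 971, 1590 and 1555 in unsorted cells at day 7. At day 17 Exp100 and Exp105 read 2954 and 3108 in GFP-negative, 1945 and 2835 in GFP-positive and 2223 and 2352 in unsorted cells, all above the day 7 samples of their kind. Exp106 read 175, 138 and 224, all below them. In GFP-positive cells the difference was -0.14 ± 1.09 with Exp106 (limma, adjusted p = 0.959) and 1.13 ± 0.29, a 2.19-fold rise, without (limma, adjusted p = 0.0379). That call was lost without Exp106 on the deposited scale and with arrays scaled to 1 trimmed mean. In GFP-negative and unsorted cells it was 1.24 ± 0.29 and 0.76 ± 0.27 without Exp106 (limma, adjusted p = 0.0764 and 0.0796).

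Many members varied together in level across the samples. Over the 18 samples the median correlation between pairs of the 11 members of the mitotic machinery was 0.768, and over the 15 without Exp106 it was 0.547. For all 39 members it was 0.358 and 0.306, and for the 10 of replication 0.347 and 0.631. The members most like Mki67 over the 18 samples were Cdc20 (r = 0.974), Lig1 (0.947), Top2a (0.946), Rrm2 (0.944), Birc5 (0.937) and Rrm1 (0.896). Over the 15 they were Cdc20 (0.928), Plk1 (0.855), Aurkb (0.842), Cdc6 (0.835), Ccna2 (0.83) and Top2a (0.827), so Cdc20 and Top2a were in both groups of 6. The lowest over the 15 were Ccnd2 (-0.8) and Cdk4 (-0.559). These correlations describe samples that share experiments and days, and they include the differences between the groups. With each group's mean taken off, the median for the mitotic machinery was 0.858 over the 18 samples and 0.334 over the 15. For all 39 members it was then 0.462 and 0.159, and for replication 0.449 and 0.514.

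Promoters are shown for Mki67 and for the 3 members most like it over the 15 samples that the table of promoters holds, since members that vary together can be set side by side by the letters before their starts. They are from RefSeq (GRCm38.p6), each from 250 bases before to 50 after the start of the gene, 5′ to 3′ on the gene's strand. Capitals mark the letters of a CCAAT box (CCAAT), a cell cycle homology region or CHR (TTTGAA), or an E2F motif (TTTCCCGC, TTTCGCGC, TTTGCCGC or TTTGGCGC), on either strand. As background, CCAAT and CHR letters are known from promoters of mitotic genes and E2F letters from those of S phase genes. Mki67 lies at chr7:135716330-135716629 (minus strand), Cdc20 at chr4:118437294-118437593 (minus strand), Plk1 at chr7:122159185-122159484 (plus strand) and Cdc6 at chr11:98907901-98908200 (plus strand).
Mki67: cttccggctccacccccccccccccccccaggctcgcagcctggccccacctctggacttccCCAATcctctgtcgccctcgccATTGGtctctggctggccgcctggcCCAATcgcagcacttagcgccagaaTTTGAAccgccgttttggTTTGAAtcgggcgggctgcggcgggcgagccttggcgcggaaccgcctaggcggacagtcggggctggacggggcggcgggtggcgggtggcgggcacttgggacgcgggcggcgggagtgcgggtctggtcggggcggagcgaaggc
Cdc20: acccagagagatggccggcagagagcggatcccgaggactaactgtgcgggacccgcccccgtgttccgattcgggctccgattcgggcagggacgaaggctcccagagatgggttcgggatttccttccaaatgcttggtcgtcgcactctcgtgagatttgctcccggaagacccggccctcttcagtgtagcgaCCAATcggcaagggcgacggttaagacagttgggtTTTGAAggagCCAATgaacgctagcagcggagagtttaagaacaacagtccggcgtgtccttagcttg
Plk1: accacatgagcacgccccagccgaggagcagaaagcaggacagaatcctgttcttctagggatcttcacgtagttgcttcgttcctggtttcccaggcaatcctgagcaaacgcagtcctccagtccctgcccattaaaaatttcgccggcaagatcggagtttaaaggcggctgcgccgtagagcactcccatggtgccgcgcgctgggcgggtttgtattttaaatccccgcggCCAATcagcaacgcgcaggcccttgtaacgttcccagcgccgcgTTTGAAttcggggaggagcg
Cdc6: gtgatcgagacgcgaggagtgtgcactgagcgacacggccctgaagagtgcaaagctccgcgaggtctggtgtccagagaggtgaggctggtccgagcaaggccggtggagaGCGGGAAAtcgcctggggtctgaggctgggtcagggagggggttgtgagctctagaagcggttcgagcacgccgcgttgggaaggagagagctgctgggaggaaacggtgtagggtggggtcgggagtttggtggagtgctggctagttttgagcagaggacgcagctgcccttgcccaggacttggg

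The Mki67 promoter has 3 CCAAT boxes, 188, 166 and 141 bases before the start, the one at 166 on the other strand, and CHR letters at 116 and 98. Cdc20 has CCAAT boxes at 53 and 8 and a CHR at 18 before the start, and Plk1 a CCAAT box at 14 before and a CHR at base 31 after it. Cdc6, whose protein acts in replication, has an E2F motif 138 bases before the start, on the other strand, and neither of the other motifs. No motif overlaps another in these 4.

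The table held 41 promoters of 37 of the 46 members, Ccnb1 included, among 32851 in all. CCAAT was in 28 of the 41 (68.3%, all promoters 37.4%), TTTGAA in 13 (31.7%, all 17.9%) and an E2F motif in 9 (22%, all 2.26%). By role, 11 of 16 promoters of mitotic genes held a CHR, each together with a CCAAT box (68.8%, all promoters 6.95%), and 1 of 16 an E2F motif. Of 18 promoters of replication and nucleotide supply genes, 2 held a CHR and 7 an E2F motif (38.9%). A CCAAT box was in 12 of these 18 (66.7%) and in 14 of the 16 mitotic ones (87.5%). Of the 5 of G1 genes, 0 held a CHR. A match of letters is a description and shows no binding.

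Top2a, the topoisomerase that untangles replicated chromosomes, followed the order of Mki67. It read 898, 878 and 945 in GFP-negative, 925, 895 and 1046 in GFP-positive and 741, 787 and 1212 in unsorted cells at day 7. Exp100 and Exp105 read 1431 and 2190, 1433 and 1729, and 1114 and 1174 at day 17, and Exp106 67, 49 and 287. In the sorted cells Exp100 and Exp105 were above and Exp106 below all day 7 samples. Without Exp106 the differences were 0.94 ± 0.24 in GFP-negative, 0.71 ± 0.24 in GFP-positive and 0.35 ± 0.22 in unsorted cells (limma, adjusted p = 0.0922, 0.0933 and 0.319), and with it they were -0.46, -0.73 and -0.28.

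Ccna2, the cyclin of S phase and mitotic entry, read 3836 and 4321 in GFP-negative, 5295 and 5338 in GFP-positive and 5586 and 4797 in unsorted cells of Exp100 and Exp105, against 2350 to 3116 over the 9 day 7 samples. In Exp106 it read 2140, 1453 and 2717. Without Exp106 the differences in GFP-positive and unsorted cells were called, at 1.06 ± 0.16 and 0.93 ± 0.16 (limma, adjusted p = 0.00361 and 0.00212), and that in GFP-negative cells was 0.66 ± 0.16 (limma, adjusted p = 0.0865). With all samples they were 0.45, 0.62 and 0.36, none called.

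Cdc25c, a phosphatase that switches on Cdk1, read high in the GFP-positive cells of day 17 in all 3 experiments, at 1569, 1359 and 1061 against 670, 673 and 601 at day 7. The difference was 0.99 ± 0.28 (limma, adjusted p = 0.0702) and was called without Exp106 (1.14 ± 0.24, limma, adjusted p = 0.0168). In GFP-negative cells it read 697, 813 and 762 against 1044, 784 and 989, which overlap. Plk1, a kinase of mitotic entry and the spindle, read 1752, 1908 and 1818 in unsorted cells at day 7 and 3370, 3257 and, in Exp106, 974 at day 17. Its unsorted difference was 0.27 ± 0.42 with Exp106 and 0.85 ± 0.20 without (limma, adjusted p = 0.701 and 0.0125).

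Cdk1, the kinase that drives mitosis, read 2609, 3908 and 2916 in GFP-negative and 3140, 4230 and 3775 in GFP-positive cells at day 7. At day 17 it read 5111, 4779 and 1944 in GFP-negative and 4839, 7125 and 2415 in GFP-positive cells, with Exp106 again the lowest. Unsorted cells read 2573, 2818 and 3038 against 3847, 4488 and 1446. The differences without Exp106 were 0.67 ± 0.24 in both sorted fractions (limma, adjusted p = 0.213 in GFP-negative and 0.111 in GFP-positive cells) and 0.56 ± 0.21 in unsorted cells (limma, adjusted p = 0.0891).

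Ccnb2, a partner of Cdk1, kept near its day 7 level in Exp106, at 4123, 4527 and 4488 in GFP-negative, GFP-positive and unsorted cells. At day 7 it read 5302, 3742 and 4491 in GFP-negative, 4287, 4578 and 4704 in GFP-positive and 4220, 3682 and 4704 in unsorted cells. Exp100 and Exp105 read 6572 and 4965, 5114 and 4559, and 6457 and 5774. Its differences of 0.20, 0.06 and 0.40 were not called, nor were those of 0.35, 0.09 and 0.54 without Exp106. Stmn1, stathmin, which takes microtubules apart, read 4603, 6627 and 4712 in GFP-negative, 3851, 5358 and 5381 in GFP-positive and 3882, 4723 and 5369 in unsorted cells at day 7. Exp100 and Exp105 gave 6845 and 5967, 4291 and 3811, and 4965 and 5654, and Exp106 1397, 1285 and 1357. Exp106 was the lowest of the 6 samples in each kind of cell.

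Birc5 (survivin), the checkpoint proteins Mad2l1, Bub1 and Bub1b, the kinases Aurka and Aurkb, the motor Kif11, the centromere histone Cenpa, the phosphatase Cdc25b, and Cdc20 and Ube2c, which mark proteins for destruction at mitotic exit, were each above 0 in both sorted fractions without Exp106. In unsorted cells without Exp106 Ube2c was at -0.44. None of them was called between the days, with or without Exp106, except that Mad2l1 was called higher in GFP-positive cells without Exp106 once the experiment was a random block (limma, adjusted p = 0.0483).

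The regulators gave no common direction. Foxm1, a factor that drives mitotic genes, read 4281, 4089 and 4782 in GFP-negative and 3943, 3575 and 4044 in GFP-positive cells at day 7, and 2620, 4602 and 5092, and 3964, 5088 and 3709 at day 17. Unsorted cells read 4327, 2848 and 4797 against 4131, 6215 and 3133, so by this probe set the groups overlapped in each kind of cell. Another tested Foxm1 probe set, of array B, read 948, 1061 and 922 in GFP-negative cells at day 7. At day 17 it read 1321, 1394 and 1337 there, with no overlap. In GFP-positive cells it read 895, 1124 and 738 against 1315, 891 and 850, which overlap. E2f1, a factor that drives replication genes, was dim, at 428 to 790 at day 7 and 539 to 693 in Exp100 and Exp105. Exp106 read 563, 153 and 1100 in GFP-negative, GFP-positive and unsorted cells. Chek1, a checkpoint kinase, read 630, 842 and 566 in GFP-positive cells at day 7 and 1031, 1096 and, in Exp106, 361 at day 17. Its difference was 0.15 ± 0.43 with Exp106 and 0.64 ± 0.30 without (limma, adjusted p = 0.229 without), and no regulator was called with or without it.

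**Figure D3:**
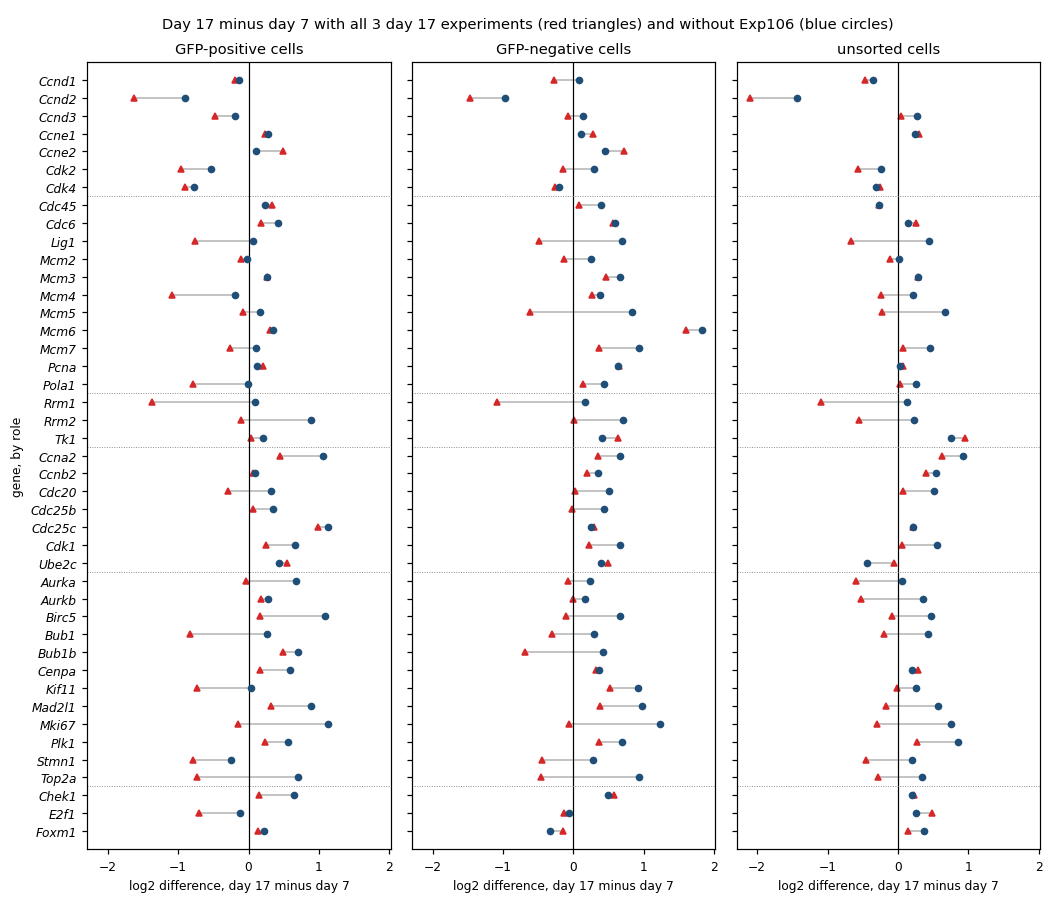
Log2 difference between day 17 and day 7 for each tested member, by role from G1 genes at the top to regulators at the bottom, with all 3 day 17 experiments (red triangles) and without Exp106 (blue circles). Leaving Exp106 out moves most mitotic and replication genes to the right, across 0 for Mki67, Top2a and Rrm1, while Cdk4 and Ccnd2 stay below 0 in each panel.

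Set directly against Exp100 and Exp105 on array A, Exp106 was low in most members. For 23 of the 39 (59%), all 3 of its samples were below all 6 of the others, and for 0 were all above. The same held for 22.5% of all 7455 tested probe sets below and 17.9% above. Over all 48 tested probe sets of members, 27 (56.2%) were below and 2 (4.17%) above. Those above were other probe sets of Mki67 (2.93-fold higher) and Mcm5 (3.14-fold higher). The median difference over the members was -1.23 (all probe sets -0.17), and 56.4% of members were at least 2-fold lower against 17.8% of all. In the mitotic machinery 10 of 11 were below throughout (median -1.91), among mitotic entry and exit genes 4 of 6, in nucleotide supply 2 of 3, among G1 genes 3 of 6, in replication 4 of 10, and of the regulators 0 of 3. Rrm1 was 15.3-fold, Mki67 12.3-fold, Lig1 8.56-fold and Mcm5 5.98-fold lower, while Pcna, Ccne1 and Tk1 were 1.11-fold, 1.14-fold and 1.18-fold higher. Since Exp106 was singled out with its values known, these are descriptions with no test.

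Other genes of the pathway were low in Exp106 as well. Of 22 tested genes of replication outside the set, 14 were below throughout (median -1.01), and of 29 of mitosis 21 (median -1.20). Of 14 cell cycle inhibitors 3 were (median -0.29). The 11 macrophage and leukocyte markers had a median of 0.71. The 6 osteoblast markers had one of 0.06, but 33.3% of them were at least 2-fold lower, against 17.8% of all probe sets. No more than that 33.3% were below 0. Alpl read 4002, 6589 and 4804 in GFP-negative, GFP-positive and unsorted cells of Exp106, and 6648 to 15946 in Exp100 and Exp105. Dmp1 read 172, 626 and 221, and 299 to 8719 in the others.

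A second probe set of the same gene often read otherwise in Exp106, higher for some genes and lower for others. The Mki67 probe set used above read 175 and 138 in the sorted cells of Exp106, where another on the same array read 1789 and 1945 against 354 to 614 in the other 10 sorted samples. For Mcm5, the probe set of array A read 148 and 1199 and one of array C 73685 and 92914, against 17740 to 35784 elsewhere. For Rrm1, the probe set of array A read 151 and 69, and one of array C read 1781 and 2216 against 320 to 1955. So for Mki67 the samples that were lowest by 1 probe set were the highest by another. For other genes the second probe set was the lower one. Against the sorted samples of all other experiments, Exp106 differed by -0.025 by the Mcm3 probe set used here and by -1.54 by another. For Ccnd1 the values were -0.63 and -2.75, for Aurkb -0.27 and -2.06, and for Cdk4 -0.56 and -1.46.

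Over the 33 pairs of tested probe sets of 1 gene, in 14 genes, the median correlation was 0.067 over the 12 sorted samples and 0.315 over the 10 without Exp106. In 17 pairs the difference of Exp106 from the sorted samples of all other experiments, of both days, had opposite signs. In 3 of these both differences were over 1 in size. Between the Mki67 probe sets r was -0.817 with and 0.315 without Exp106, and between a pair of Plk1 probe sets on array A 0.129 and 0.823. The samples in these correlations share experiments. No probe set of a member other than those used to describe it was called in any comparison, with or without Exp106.

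**Figure D4:**
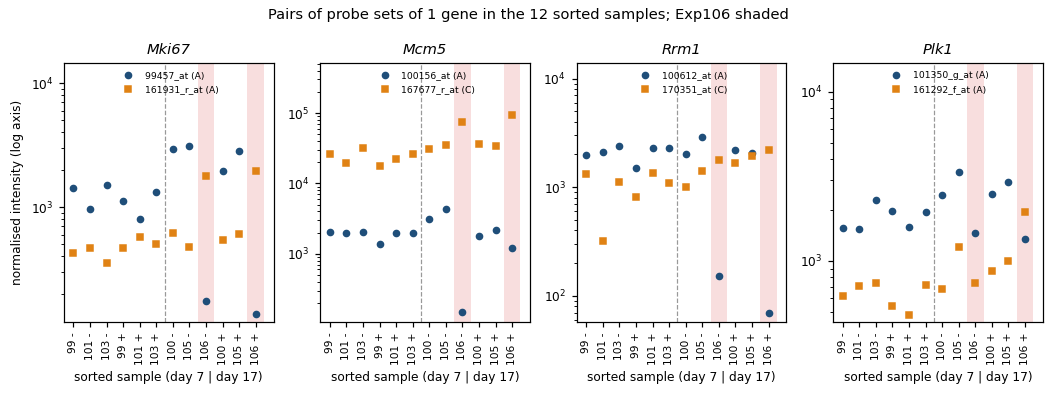
Normalised intensity, on a log axis, of pairs of probe sets of 1 gene in the 12 sorted samples (- GFP-negative, + GFP-positive; array in brackets), with Exp106 shaded. In the shaded columns the blue probe sets of Mki67 and Rrm1 drop while the orange ones are at or near their highest.

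GFP-positive and GFP-negative cells were compared on each day. At day 7 the members leaned to neither side: 21 of 43 were higher in GFP-positive cells (median -0.01, all probe sets 0.00). Limma called 0 of the 65 member probe sets and 0% of all 22099, with 0 members and 395 probe sets at an unadjusted p under 0.05. Without Exp106 in the fit, 0 members and 0.0189% of all were called. The members with the lowest unadjusted p, 3 a direction, were Mcm6, Ccne2, Cdk2, Mcm3, Bub1b and Cdc25c, and each had a limma adjusted p of 1. Mcm6 differed by 0.86 ± 0.46, with 267, 207 and 725 in GFP-negative and 930, 659 and 457 in GFP-positive cells, which overlap. Cdk2 read 832, 830 and 669 in GFP-negative and 992, 1080 and 891 in GFP-positive cells, higher in each experiment, and Ccne2 2452, 3707 and 2087 against 3412, 3764 and 2880. Mcm3, a helicase subunit, read 1406, 1070 and 1593 against 1087, 864 and 1450, lower in each experiment. Bub1b, a spindle checkpoint kinase read on array B, was at 1261, 1535 and 1389 against 1582, 1652 and 178, so its difference of -0.78 rested on Exp103.

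At day 17 the members leaned to the GFP-negative side: 13 of 43 were higher in GFP-positive cells (median -0.20, all probe sets -0.01), and the same count without Exp106 (median -0.18). Within experiments the members' median was -0.16 for Exp100, -0.28 for Exp105 and -0.29 for Exp106, of 1 sign, against -0.09, 0.03 and -0.01 in the day 7 experiments. Leaving out 1 fraction of an experiment, which breaks its pair, moved the group median: it was 0.18 without the GFP-positive sample of Exp106 and -0.66 without its GFP-negative sample. It was -0.01 and -0.05 without the GFP-negative sample of Exp100 or Exp105, and -0.46 and -0.49 without the GFP-positive one. Limma called 0 of the 65, with 2 members at an unadjusted p under 0.05, where 1.29% of all probe sets were called. Without Exp106 it called 1, Cdk4, with 7 members at an unadjusted p under 0.05, against 3.7% of all, and with the experiment as a block also 1, Cdk4, against 3.22% of all. By the probe set used to describe it, Cdk4 was lower in GFP-positive cells in all 3 experiments, by -0.52, -0.61 and -0.77. Its day 7 differences were -0.11, 0.06 and 0.09. Its difference at day 17 was -0.63 ± 0.17 (limma, adjusted p = 0.129, and 0.0334 with the block), and -0.56 ± 0.13 without Exp106 (limma, adjusted p = 0.0475, and 0.0501 with the block as well). The other tested Cdk4 probe set read 3512, 6236 and 2681 in GFP-negative and 4286, 4416 and 1050 in GFP-positive cells at day 17. It was thus higher in GFP-positive cells in Exp100. At day 7 it read 3687, 6207 and 7723 against 2131, 4230 and 7823, lower in Exp99 and Exp101. With the experiment as a random block and Exp106 left out, Cdk4 and Mcm5 were called lower (limma, adjusted p = 0.0184 and 0.045). In the same comparison 0 of 10 tested macrophage and leukocyte markers were above 0 (median -1.52), and 3 of 8 markers of fibroblasts and progenitors were called lower. Their part in these results was not tested.

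Few replication genes were above 0 in this comparison. Of the 14 tested of replication and nucleotide supply, 3 were above 0 (median -0.41), and without Exp106 1 of 14 (median -0.38), with 0 of the 11 of replication (median -0.61). Without Exp106, 8 of 19 mitotic genes were above 0 (median -0.08). Mcm4 read 1274, 2081 and 1273 in GFP-negative and 773, 1049 and 117 in GFP-positive cells, lower in each experiment (-1.60 ± 0.60, limma, adjusted p = 0.319; without Exp106 -0.83, limma, adjusted p = 0.225). Mcm5 was lower by -0.77 and -0.99 in Exp100 and Exp105 and higher by 2.77 in Exp106, where its GFP-negative value was 148. Lig1 differed by -0.88, -0.65 and 0.27, and Mcm7 by -0.52, -0.72 and 0.00. Over the 14 genes the median came to -0.43 for Exp100, -0.56 for Exp105 and -0.13 for Exp106, against -0.23, 0.04 and -0.03 at day 7. On the deposited scale the members' median at day 17 was -0.35 (all probe sets -0.06), and at day 7 -0.19 (all -0.06).

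Single members went the other way or did not pass the test. Cdc25c differed by 0.57, 0.77 and 0.10, higher in GFP-positive cells in each experiment at day 17 (0.48, limma, adjusted p = 0.638; 0.67 without Exp106, limma, adjusted p = 0.24). Cdk1 differed by 0.27, and by 0.25 without Exp106. Cdc45 read 821, 1336 and 529 in GFP-negative and 829, 918 and 1084 in GFP-positive cells, which overlap, and Tk1 differed by -0.44, 0.11 and -1.39.

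The change of the GFP difference between the days was fitted directly. Limma called 0 of the 65 member probe sets, with 1 member at an unadjusted p under 0.05, against 0.222% of all, and without Exp106 0, with 3 members, against 0.985%. Of the 43 members 14 were above 0 (median -0.17, all probe sets -0.02), and without Exp106 13 (median -0.16). This median was 0.18 without the GFP-positive sample of Exp106 and -0.47 without its GFP-negative sample or without the GFP-positive one of Exp105. Of the 14 of replication and nucleotide supply, 3 were above 0 (median -0.34), and 1 without Exp106 (median -0.43). Cdk4 changed by -0.64 ± 0.25 (limma, adjusted p = 0.666) and Mcm6 by -1.30 ± 0.65 (limma, adjusted p = 0.909), and without Exp106 by -0.58 and -1.48 (limma, adjusted p = 0.179 and 0.465), so the GFP difference of no member was shown to differ between the days.

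The unsorted cultures were set against the mean of their sorted fractions on array A, which bears on what sorting left out or changed. At day 7, 16 of 39 members were higher in the unsorted cells (median -0.01, all probe sets -0.01). Limma called 0 of the 48 member probe sets and 0% of 7455, with 0 members and 59 probe sets at an unadjusted p under 0.05, and 0 and 0% without Exp106. The lowest unadjusted p-values, 3 a direction, were those of Ube2c (0.37), Mcm3 (0.17), Ccnd1 (0.13), E2f1 (-0.24), Tk1 and Cdk4. Ube2c read 510, 606 and 476 in unsorted cells, 425, 459 and 322 in GFP-negative and 298, 330 and 671 in GFP-positive cells, which overlap.

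At day 17, 19 of 39 were higher in the unsorted cells (median -0.01, all probe sets -0.03), and 16 without Exp106 (median -0.19, all -0.04). Limma called 0 of the 48, with 0 members at an unadjusted p under 0.05, against 1.6% of all. Without Exp106 it called 0, with 4 members at an unadjusted p under 0.05, against 9.37%. With the experiment as a block 2 were called lower, Cdk1 (-0.44, limma, adjusted p = 0.0471) and Mad2l1 (-0.63, limma, adjusted p = 0.0305), against 12.3% of all. Mad2l1, of the spindle checkpoint, read 2518, 2369 and 505 in unsorted, 2669, 4064 and 923 in GFP-negative and 3283, 3926 and 1062 in GFP-positive cells, lower in each experiment. Cdk1, at 3847, 4488 and 1446 in unsorted cells, was below both sorted fractions in each experiment too. In the same blocked fit 10 of 11 macrophage and leukocyte markers were called higher in the unsorted cells (median 1.98), and their part in these results was not tested. E2f1 differed by 0.66 (limma, adjusted p = 0.389), and by 0.11 without Exp106, and Exp106 alone read 1100 in unsorted cells against 563 and 153 in the sorted ones. Pcna differed by -0.35 (limma, adjusted p = 0.431), Cdc25c by -0.38 and Ccnd3 by 0.31, and without Exp106 by -0.34, -0.44 and 0.29. By experiment the members had a median of -0.01 for Exp100, -0.33 for Exp105 and 0.17 for Exp106.

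Other genes of the pathway outside the set also moved when Exp106 was left out, except for the replication genes in unsorted cells, where the count above 0 hardly changed. Of 36 tested genes of mitosis, 13 were above 0 at day 17 in GFP-positive cells with Exp106 and 32 without (medians -0.17 and 0.33), and in GFP-negative cells 18 and 32 (medians 0.00 and 0.50). Called members of this list were 0 with Exp106 and 3 without in GFP-positive cells, namely Anln, a scaffold of cell cleavage (0.74, limma, adjusted p = 0.0332), Cenpf, of the kinetochore (1.10, limma, adjusted p = 0.0198), and Ect2, which sets the cleavage site (0.97, limma, adjusted p = 0.0495), where 11.2% of all probe sets were called. In unsorted cells 9 of 29 were above 0 with Exp106 and 24 without (medians -0.15 and 0.34), with 0 and 3 called higher, against 5.71% and 13.2% of all probe sets. Of 28 genes of replication, 7 and 18 were above 0 in GFP-positive cells (medians -0.34 and 0.11) and 13 and 23 in GFP-negative cells (medians -0.07 and 0.47). In unsorted cells 10 of 22 replication genes were above 0 with Exp106 and 11 without (medians -0.24 and -0.01).

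Of 13 tested inhibitors of the cycle, 2 were called between the fractions at day 17, in opposite directions, where 1.29% of all probe sets were called. Cdkn1a (p21), which blocks cyclin-dependent kinases, read 1708, 2209 and 1995 in GFP-negative and 5654, 4456 and 5152 in GFP-positive cells, with no overlap (1.36 ± 0.26, limma, adjusted p = 0.0248). At day 7 it read 4706, 3323 and 3154 against 4934, 3967 and 2842, which overlap. Gas1, a membrane protein of growth arrest, read 6329, 5450 and 4958 in GFP-negative and 1590, 1466 and 1429 in GFP-positive cells at day 17 (-1.87 ± 0.25, limma, adjusted p = 0.003). Over the 13, 5 were above 0 (median -0.17). Without Exp106 both were called too (limma, adjusted p = 0.0428 and 0.00846), Gadd45a was called lower as well, and with the experiment as a block Cdkn1c (-1.87, limma, adjusted p = 0.00291).

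Between the days, 3 of the 13 inhibitors were called lower in GFP-positive cells, where 4.82% of all probe sets were called in either direction. Gadd45a, a stress-induced growth arrest gene, read 5198, 5352 and 5079 at day 7 and 250, 396 and 1545 at day 17 (-3.19, limma, adjusted p = 0.00723). Gas1 read 6246, 3872 and 6086 and then 1590, 1466 and 1429 (-1.80, limma, adjusted p = 0.00193). Cdkn2b (p15), which inhibits Cdk4, read 4123, 3845 and 3750 and then 1947, 1459 and 1143 (-1.38, limma, adjusted p = 0.00535). All 3 were below every day 7 value in each day 17 sample. Without Exp106 these 3 were called too, and Cdkn2d was called higher (0.94, limma, adjusted p = 0.014), where 11.2% of all probe sets were called. In GFP-negative cells limma called 0 inhibitors, with 3 at an unadjusted p under 0.05, and without Exp106 it called Gadd45a (-1.96, limma, adjusted p = 0.03). In unsorted cells 1 of 14 was called, Gadd45a, lower (-2.10, limma, adjusted p = 0.0254).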

How the data were processed

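RNA of 18 samples in 6 groups of 3 was measured on Affymetrix arrays of the MG-U74 set, here A, B and C, on 44 arrays. The deposited files hold 1 linear intensity per probe set, rounded to whole numbers and never under 10. The authors' summary and scaling of the probes are not given in the sources used here. Values were normalised by quantiles within each array type as log2(intensity + 32). Differences were fitted with lmFit and eBayes (with a variance trend) of limma 3.58.1 (statmod 1.5.0, R 4.3.3), over 22099 tested probe sets of the 12 sorted samples on A, B and C and 7455 of the 18 samples on A, and p-values were adjusted by Benjamini-Hochberg over all of these. The script was tested on simulated data. The members and lists were chosen with earlier results of these data known. The labels do not say that the cultures were separate, so the p-values rest on the spread between samples, which may be technical, and the number of arrays limits the precision.

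Named with values by sample were the called members, where none was called those with the 3 lowest unadjusted p-values for each sign, and 15 members of central role. The fractions of 1 experiment carry its name in the labels: their deviations from the group means correlated at 0.259, 0.461 and 0.377 for Exp99, Exp101 and Exp103 and at 0.478, 0.594 and 0.687 for Exp100, Exp105 and Exp106, so fits with the experiment as a block are given beside the calls they change. GFP-positive cells of Exp100 and GFP-negative cells of Exp105 also correlated, at 0.572, and the reverse pair at 0.422. These values alone thus do not show pairing within Exp100 or Exp105. Other alternatives were a pseudocount of 8 or 128, no filter or a filter at percentile 75, the deposited scale, 1 trimmed mean (2% trimmed), only the groups compared, no variance trend, the mean over a gene's probe sets, no Exp106, and each sample left out. Fits without Exp106 or another sample kept the quantile normalisation over all samples, the omitted ones included. The deposited scale and the trimmed mean use no quantiles. Combinations without Exp106 (a random block, the deposited scale, the trimmed mean), and eBayes run by array type with array A normalised over the 12 sorted samples, were added after seeing the data. Left out were 2 probe sets shared between Tyms and another gene, and the unsorted Exp106 arrays of types B and C, which enter no fit. Other lists were genes of replication and mitosis, inhibitors, and markers of osteoblasts, macrophages and leukocytes, fibroblasts and progenitors, and skeletal muscle.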

Additional observations from a re-analysis of the deposited data

Results flagged for a closer look

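For Cdk2, the partner of cyclin E, the GFP-positive minus GFP-negative difference was above 0 in each day 7 experiment (0.246, 0.367 and 0.397) and below 0 in each day 17 experiment (-0.349, -0.636 and -0.447). The change of -0.814 (SE 0.661) was tested in the fit over all probe sets and did not pass (limma, adjusted p = 1).

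For Cdc25c, the phosphatase that switches on Cdk1, the order was the opposite: below 0 in each day 7 experiment (-0.0534, -0.261 and -0.328) and above 0 in each day 17 experiment (0.574, 0.77 and 0.0991). The change of 0.695 (SE 0.398) did not pass either (limma, adjusted p = 0.987).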

How the results depend on the processing

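Without Exp106 the difference of Mki67 between the days in GFP-positive cells changed sign, to 1.13, also with a random block. Called member probe sets in GFP-positive cells, 1 at first, were 0 with only the groups compared, 2 with no variance trend, 2 with eBayes run by array type (array A then normalised over the sorted samples alone), 4 without Exp106 and 5 with the random block added, 4 without Exp106 on the deposited scale and 5 with the trimmed mean, and 0 to 2 with each sample left out. In unsorted cells, again 1 at first, they were 0 with no filter, on the deposited scale and with only the groups compared, 4 without Exp106 and 4 with the random block added, 2 without Exp106 on the deposited scale and 4 with the trimmed mean, and 0 to 2 with each sample left out. Between the fractions at day 17, 0 at first, they were 1 with the replicate block, 1 with a random block, 1 without Exp106 and 2 with the random block added (Cdk4 and Mcm5; 0 with the fixed block added), and 2 with the block between unsorted and sorted cells at day 17.

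The members' median between the fractions at day 7 was -0.191 on the deposited scale, with and without Exp106. At day 17 it was -0.0913 with the filter at percentile 75, -0.349 on the deposited scale (-0.456 there without Exp106), -0.116 over the mean of a gene's probe sets, and -0.656 to 0.178 with each sample left out. The median change of that difference between the days ran from -0.473 to 0.185 with each sample left out. Unsorted against sorted cells, it was 0.129 at day 7 on the deposited scale, with and without Exp106, and -0.119 to 0.0527 with each sample left out, and at day 17 -0.29 to 0.266. On that scale all tested probe sets had medians of 0.12 at day 7 and 0.23 at day 17. The causes were not tested. The replicate block changed no other call of a member. With 3 samples a group, and 2 at day 17 without Exp106, small differences were not detectable.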
